A study of Mus musculus with 6 samples.

Results

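The subunits of the mitochondrial respiratory chain and ATP synthase were chosen by gene symbol from the deposited gene table, and 100 of its 28802 genes matched. Of these, 13 are encoded on mitochondrial DNA (symbols starting mt-Nd, mt-Co, mt-Cytb or mt-Atp) and 87 on nuclear chromosomes (the Nduf, Sdh, Uqcr, Cyc1, Cox4 to Cox8 and Atp5 symbols). A further 10 rows carried such a symbol with a pseudogene suffix and were left out. The mitochondrial genes hold 7 subunits of complex I, 1 of complex III, 3 of complex IV and 2 of complex V. The nuclear genes hold 37 of complex I, 4 of complex II, 9 of complex III, 20 of complex IV and 17 of complex V.

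The study asked how a bone-repair scaffold loaded with metformin, a biguanide drug, acts on mouse cranial bone. A defect 5 mm in diameter was made in the skull. The control group (0 µM metformin) and the scaffold group, which received 500 µM metformin in α-CSH/nHA, a calcium sulfate and hydroxyapatite composite, held 3 libraries each, all labelled cranial bone. The labels give no strain, age, sex or sampling time and do not say whether the controls received the composite without drug, so the drug and the material cannot be told apart. They also do not say whether the 3 libraries of a group came from separate animals or cultures, so a p-value speaks for the spread among these libraries alone. Poly(A)-selected RNA was sequenced as pairs of 150-base reads, giving 63174927 to 70955139 estimated counts per library, with 22240 to 23043 genes above 0. The 8 osteoblast markers had summed levels of 5837 to 6657 FPKM (sequenced fragments per transcript length and library size, a level per length) in control and 6966 to 7085 in scaffold libraries, whereas the leukocyte, red cell and endothelial lists each summed to at most 0.434 FPKM. Blood and vessel cells thus left little RNA in any library. Beyond the label cranial bone, whether tissue or cultured cells gave the RNA is not stated. Of the osteoblast markers, 4 were higher in every scaffold library (Ibsp, Sp7, Alpl and Bglap) and Runx2 was lower in every one, while Col1a1, Col1a2 and Spp1 overlapped. Of all genes tested, 9.23% were higher in FPKM in every scaffold library than in every control and 16.2% lower.

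The respiratory chain passes electrons from NADH (complex I) or succinate (complex II) through complex III and cytochrome c to oxygen at complex IV, and complex V uses the resulting proton gradient to make ATP. Complexes I, III, IV and V are built from both genomes, and complex II from nuclear genes alone. Mitochondrial mRNAs are cut from long precursor transcripts, so genes of the same strand share a source (mt-Nd6 lies on the other strand). Each nuclear subunit is transcribed from a gene of its own. Metformin is known as an inhibitor of complex I activity, a property of the protein that mRNA levels do not measure.

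Before the values, the sequences set a limit on them. A block of chromosome 1 (GRCm38 chr1:24611535-24616197, minus strand) holds 7 unprocessed pseudogenes that copy mitochondrial genes, and the deposited table lists them as separate genes. Aligned with the annotated transcripts, the copies of mt-Nd4 (Gm28439), mt-Nd4l (Gm10222), mt-Co3 (Gm28437), mt-Atp6 (Gm10925) and mt-Co2 (Gm28661) matched over 876, 294, 783, 678 and 681 bases with 100% identity. The copy of mt-Nd3 (Gm28438) differed at 1 of 345 bases, and that of mt-Co1 (Gm29216), a part copy of 492 bases, at 1 of 483 aligned bases. The first 150 bases of mt-Nd3 (mitochondrial genome 9459 to 9608, plus strand) and of its copy (chr1:24612970-24613119, minus strand) show the single differing base in capitals, and those of mt-Nd4l (9877 to 10026) and its copy (chr1:24612551-24612700) show why a read of this length cannot be placed.
mt-Nd3: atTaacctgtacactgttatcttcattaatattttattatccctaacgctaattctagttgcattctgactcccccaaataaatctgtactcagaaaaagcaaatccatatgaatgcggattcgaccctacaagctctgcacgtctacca
Gm28438: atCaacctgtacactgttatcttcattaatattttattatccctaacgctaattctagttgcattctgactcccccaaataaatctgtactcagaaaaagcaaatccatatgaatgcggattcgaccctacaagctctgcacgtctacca
mt-Nd4l: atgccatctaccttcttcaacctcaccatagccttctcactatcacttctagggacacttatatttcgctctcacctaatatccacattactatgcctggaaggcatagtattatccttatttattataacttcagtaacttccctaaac
Gm10222: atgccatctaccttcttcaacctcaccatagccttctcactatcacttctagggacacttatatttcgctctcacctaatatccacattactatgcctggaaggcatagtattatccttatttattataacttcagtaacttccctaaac

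The table gave the 5 copies that match nearly the whole of their gene 0.964 to 1.06 times the FPKM of the mitochondrial gene in every library. The copy of mt-Nd4 stood at 0.723 to 0.752 of its gene and the part copy of mt-Co1 at 0.246 to 0.287. Together the copies took 1.67% to 2.16% of all counts. The sources used here do not say how reads that match both places were counted, so the levels of mt-Nd3, mt-Nd4, mt-Nd4l, mt-Co1, mt-Co2, mt-Co3 and mt-Atp6 are uncertain, and a copy's change is no second measurement of its gene. The table lists no copy in this block for mt-Nd1, mt-Nd2, mt-Nd5, mt-Nd6, mt-Cytb and mt-Atp8. The end of mt-Atp8 overlaps the start of mt-Atp6, which Gm10925 copies from its first base, so part of mt-Atp8 is copied too. The bases between Gm10925 and Gm28661, opposite the rest of mt-Atp8, were not aligned, and the level of mt-Atp8 is uncertain as well.

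**Figure D1:**
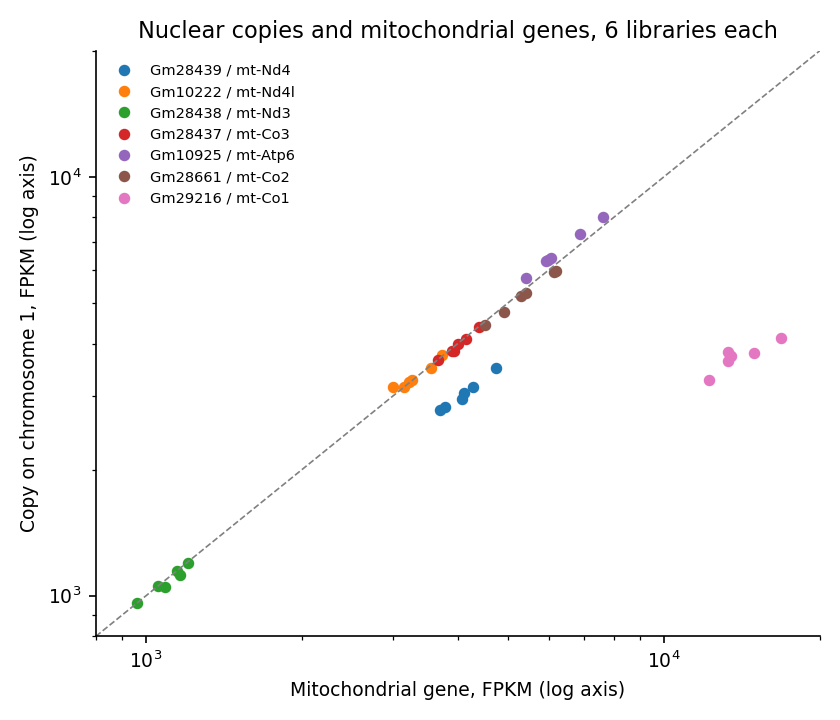
FPKM of the 7 chromosome 1 copies (y, log axis) against the mitochondrial gene each copies (x, log axis), 1 point per library; the dashed line marks equal levels. The 5 near-full copies lie on the line, and the copies of mt-Nd4 and mt-Co1 lie below it.

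The mitochondrial mRNAs were far more abundant per length than the nuclear ones in both groups. The length behind each FPKM, worked back from its ratio to counts and scaled to mt-Co1, can exceed the transcript. For Ndufb4 it was 1918 bases against 971 in the annotated transcript. FPKM of nuclear genes may therefore be too low, and ratios to them too high. Averaged over the 6 libraries, mitochondrial genes ranged from 1102 FPKM (mt-Nd3) to 14021 FPKM (mt-Co1), with a median of 4115. The nuclear subunits had a median of 22.8 FPKM, the highest being Atp5b, the catalytic beta subunit of ATP synthase, at 180.5 FPKM. Of the 87 nuclear genes, 67 reached 10 FPKM and 8 stayed below 1 FPKM, namely Ndufs6b, Cox6a2, Cox7a1, Ndufa4l2, Cox8b, Cox7b2, Cox4i2 and Cox6b2.

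The mitochondrial genes took 6.33%, 7.07% and 6.98% of all counts in control replicates 1, 2 and 3, and 6.88%, 7.66% and 8.49% in scaffold replicates 1, 2 and 3. The difference of the means was 0.884 percentage points, and the groups overlapped because scaffold replicate 1 fell among the controls. The nuclear subunits together took 0.526%, 0.588% and 0.598% in control and 0.593%, 0.537% and 0.553% in scaffold libraries. Summed FPKM of the mitochondrial genes was 22.6, 22.2 and 21.4 times that of the nuclear genes in control and 21.4, 26.8 and 28.6 times in scaffold libraries. On that ratio scaffold replicates 2 and 3 stood above every control and scaffold replicate 1 did not. In bulk RNA, fewer cells of a type and less RNA per cell cannot be told apart, nor can more mitochondrial DNA copies and more transcript per copy.

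**Figure D2:**
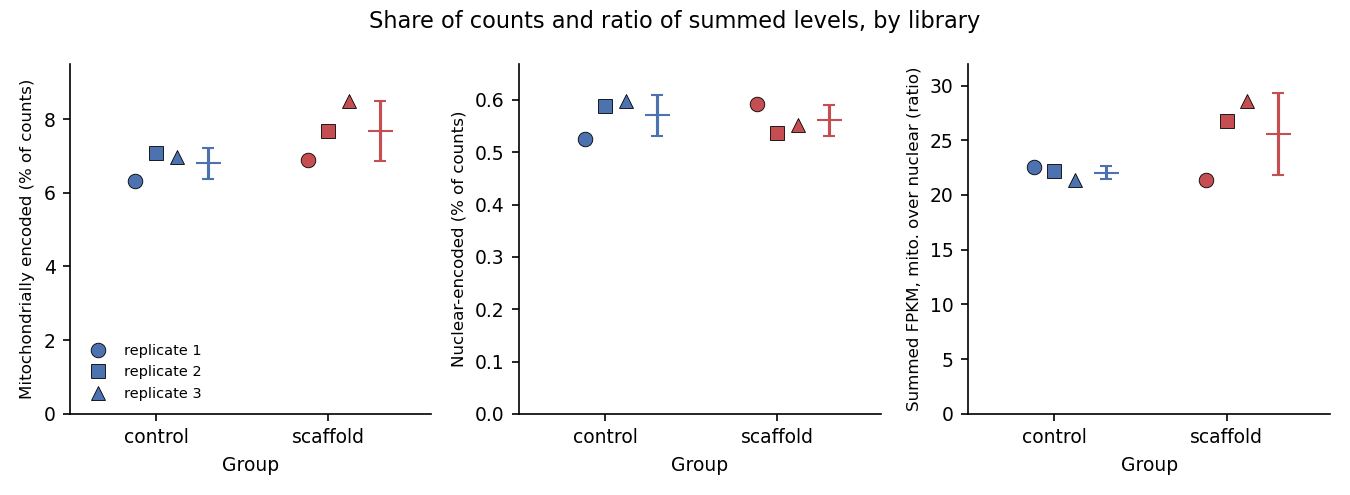
Share of all counts taken by the 13 mitochondrial (left) and 87 nuclear (middle) subunit genes, and the ratio of their summed FPKM (right), for each library, with the group mean and SD (n = 3) beside the points. Scaffold replicate 1 lies among the controls in the left and right panels, while scaffold replicates 2 and 3 lie above them.

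The scaffold and control libraries were compared gene by gene with edgeR's quasi-likelihood test over the whole table, adjusted by the Benjamini-Hochberg method, and called at 0.05. Of 17375 genes tested, 749 passed (4.31%), 496 of them higher in scaffold libraries (2.85%) and 253 lower (1.46%). None of the 96 subunits tested passed, 13 mitochondrial and 83 nuclear. At an unadjusted p under 0.05 stood 7 mitochondrial genes, each higher (9.91% of all genes were higher at that level), and 7 nuclear genes. Of those, Ndufb4c and Atp5pb were higher and Ndufv1, Ndufb3, Ndufa3, Ndufc1 and Atp5e were lower (8.17% of all genes were lower). Among the 4045 genes with a mean of at least 10 FPKM, 683 were higher and 427 lower at that unadjusted level. DESeq2 called 6 mitochondrial subunits higher and none lower, and no nuclear subunit, against 6.13% of genes called higher and 3.48% lower. With the replicate number as a block, edgeR called 2 mitochondrial subunits higher, mt-Nd1 and mt-Co2, and no other, against 2.65% of genes called higher and 1.1% lower.

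The mitochondrial genes nevertheless leaned one way. Their log2 fold change, scaffold over control, was above 0 for 13 of 13 (against 49% of all genes tested). The median was 0.20, a fold of 1.15, and the range ran from 0.04 to 0.33. Of the 4045 genes with a mean of at least 10 FPKM, a level all 13 reached, 2288 were above 0. On the FPKM scale, fitted with limma, 12 of 13 were above 0, the exception being mt-Nd6. Without control replicate 1 there were 11 (mt-Nd3 and mt-Nd6 turned) and without scaffold replicate 3 also 11 (mt-Nd5 and mt-Nd6 turned). The nuclear subunits had a median of -0.02, with 37 of 83 above 0, and all genes tested a median of -0.0045. Because mitochondrial genes of the same strand share precursors, their common sign is not 13 separate observations. The 95% interval of the fold lay within 1.5-fold either way for all 13 mitochondrial genes and for 74 of 83 nuclear genes.

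**Figure D3:**
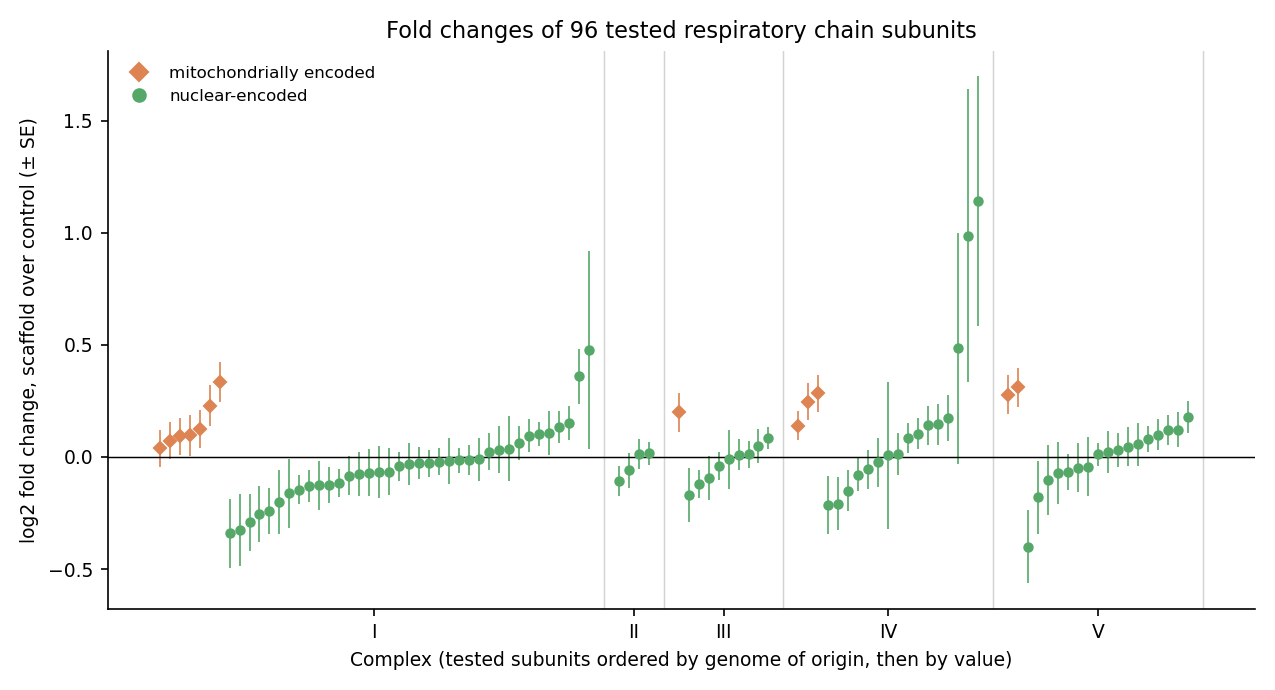
log2 fold change, scaffold over control, with its standard error (edgeR, n = 3 per group) for the 96 tested subunits, by complex (x) and genome of origin (diamonds mitochondrial, circles nuclear). All diamonds lie above 0, between 0.04 and 0.33, while the circles scatter around 0; the widest bars belong to isoforms below 1 FPKM.

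Among the mitochondrial subunits of complex I, mt-Nd1, part of the membrane arm next to the quinone site (mitochondrial genome 2751 to 3707, plus strand), had the largest difference. It measured 3937, 4417 and 4404 FPKM in control and 4568, 5267 and 5817 FPKM in scaffold libraries. Every scaffold library stood above every control. The log2 fold change was 0.33 ± 0.09 (SE), with an adjusted p of 0.0594 by edgeR.

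The next subunit gene along the genome, mt-Nd2 (3914 to 4951), measured 2942, 3210 and 3186 FPKM in control and 3047, 3597 and 4008 FPKM in scaffold libraries, and the groups overlapped in scaffold replicate 1. Its log2 fold change was 0.23 ± 0.09 (SE; adjusted p = 0.207, edgeR). The other 5 complex I genes differed by less. mt-Nd4 had a log2 fold change of 0.13, mt-Nd5 0.10, mt-Nd4l 0.09, mt-Nd3 0.07 and mt-Nd6 0.04, with edgeR adjusted p-values of 0.488 to 0.866.

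mt-Nd3, the least abundant of the 13, measured 961, 1161 and 1147 FPKM in control and 1203, 1056 and 1086 FPKM in scaffold libraries. It was the mitochondrial gene in which scaffold replicate 1 was the highest, not the lowest, scaffold library. mt-Nd6, a complex I subunit and the sole member on the minus strand of the mitochondrial genome (13552 to 14070), measured 2660, 2989 and 2970 FPKM in control and 2542, 2913 and 3159 FPKM in scaffold libraries. Its end overlaps that of mt-Nd5 (11742 to 13565) on the other strand, and whether counting used strand is not given, so reads of mt-Nd6 and of RNA opposite it cannot be told apart.

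In complex III, mt-Cytb, the cytochrome b that carries electrons between the quinone sites (14145 to 15288), measured 6201, 6898 and 6862 FPKM in control and 6520, 7462 and 8339 FPKM in scaffold libraries. Scaffold replicate 1 again fell among the controls. The log2 fold change was 0.20 ± 0.09 (SE; adjusted p = 0.254, edgeR).

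The 3 core subunits of complex IV differed in the same direction. mt-Co1, the subunit where oxygen is reduced (5328 to 6872), measured 12242, 13501 and 13296 FPKM in control and 13323, 14944 and 16818 FPKM in scaffold libraries. Its groups overlapped on the FPKM scale, although not in counts scaled by TMM to library size (CPM), and its log2 fold change was 0.25 ± 0.08 (SE; adjusted p = 0.137, edgeR). mt-Co2, which takes electrons from cytochrome c (7013 to 7696), measured 4510, 5425 and 4914 FPKM in control and 5301, 6135 and 6181 FPKM in scaffold libraries. The groups overlapped in 1 control, and the log2 fold change was 0.29 ± 0.08 (SE; adjusted p = 0.0844, edgeR). mt-Co3 (8607 to 9390) had a smaller log2 fold change of 0.14 ± 0.07 (SE; adjusted p = 0.290, edgeR).

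The complex V genes mt-Atp8 (7766 to 7969) and mt-Atp6 (7927 to 8607) lie on 1 mRNA and share 43 bases, shown in capitals at 7907 to 7989 of the plus strand, because reads from this stretch belong to both genes.
mt-Atp8 end and mt-Atp6 start: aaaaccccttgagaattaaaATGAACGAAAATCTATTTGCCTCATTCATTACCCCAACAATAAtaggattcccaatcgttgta

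mt-Atp8, a small membrane subunit of ATP synthase, measured 5950, 6228 and 6017 FPKM in control and 6293, 7456 and 8206 FPKM in scaffold libraries, with no overlap. Its log2 fold change was 0.31 ± 0.09 (SE; adjusted p = 0.0725, edgeR). mt-Atp6, part of the proton channel, measured 5418, 6051 and 5932 FPKM in control and 5987, 6897 and 7640 FPKM in scaffold libraries, with an overlap on this scale in scaffold replicate 1. Its log2 fold change was 0.28 ± 0.09 (SE; adjusted p = 0.108, edgeR).

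In TMM-scaled CPM (counts relative to library size) the groups did not overlap for 4 of 13 mitochondrial genes (mt-Nd1, mt-Co1, mt-Atp8 and mt-Atp6), each higher in scaffold libraries, against 24% of all genes without overlap in either direction and 12.5% with scaffold libraries higher. In FPKM they did not overlap for 2 (mt-Nd1 and mt-Atp8), both higher, against 9.23% of all genes higher and 16.2% lower on that scale. In CPM, 767 of the 4045 genes with a mean of at least 10 FPKM were higher without overlap.

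The transcripts also differ at their ends. In the annotation mt-Co3, mt-Nd4 and mt-Cytb stop 1 base after a whole codon, with a lone T, whereas the other 10 carry a whole TAA or TAG. The log2 fold changes of those 3 genes, 0.14, 0.13 and 0.20, lay inside the range of the others.

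**Figure D4:**
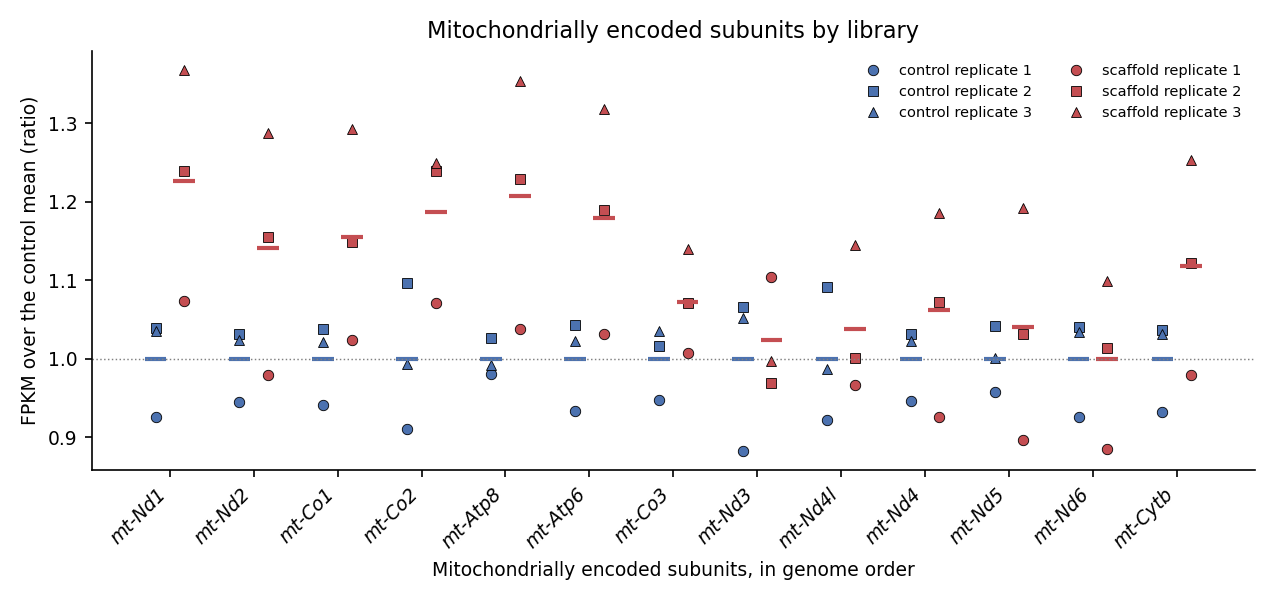
FPKM of each mitochondrial gene in each library as a ratio to the control mean (y), in genome order (x), with a bar at each group mean (n = 3). Scaffold replicate 3 is the highest library and control replicate 1 the lowest control in most genes; scaffold replicate 1 lies near the controls.

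Among the nuclear subunits, complex I genes were more often below 0 than above, while 49% of all genes tested were above 0. Of 37 tested, 11 had a log2 fold change above 0 and 26 below, with a median of -0.03, and none passed the test. The 7 core subunits, which carry the flavin and the iron-sulfur clusters, were each below 0, with a median of -0.03 and a largest difference of -0.15 in Ndufv1, the NADH-binding subunit. These differences were small, and Ndufv2 was above 0 in 2 of 18 alternatives. Ndufv2, a core iron-sulfur subunit and among the more abundant nuclear members of the complex, measured 47.5, 49.9 and 52.0 FPKM in control and 49.9, 45.3 and 47.4 FPKM in scaffold libraries. The groups overlapped, and the log2 fold change was -0.03 ± 0.06 (SE; adjusted p = 0.858, edgeR). Ndufb10, an accessory subunit of the membrane arm, was at 0.10 ± 0.05 on the log2 scale (SE; adjusted p = 0.339, edgeR).

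The lowest value in complex I was that of Ndufc1, a small accessory subunit (GRCm38 chr3:51404677-51408988), with 9.37, 10.1 and 11.5 FPKM in control and 10.3, 6.70 and 6.80 FPKM in scaffold libraries. Scaffold replicates 2 and 3 stood below every control and scaffold replicate 1 among them. The log2 fold change was -0.34 ± 0.15 (SE; adjusted p = 0.274, edgeR). The highest value was that of Ndufs6b, a paralogue of Ndufs6 below 1.2 FPKM in every library, at 0.48 ± 0.44 (SE; adjusted p = 0.634, edgeR). Ndufb4c, a paralogue of the accessory subunit Ndufb4 outside the naming rule, measured 11.6, 12.3 and 12.1 FPKM in control and 13.9, 16.6 and 14.6 FPKM in scaffold libraries. Its groups did not overlap, and its log2 fold change was 0.36 ± 0.12 (SE; adjusted p = 0.143, edgeR). With limma on log2(FPKM + 1) and a mean of at least 5 FPKM it passed (adjusted p = 0.0406), where 3.41% of genes were called higher and 3.36% lower. Over all of its 390 bases the annotated Ndufb4c transcript matched that of Ndufb4 with 100% identity, so reads of the 2 genes cannot be told apart there and both levels are uncertain.

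Complex II, which also works in the citric acid cycle, showed small differences, and none of its 4 genes passed. Sdha, the flavoprotein that oxidises succinate, measured 26.0, 26.1 and 26.8 FPKM in control and 25.0, 26.3 and 26.4 FPKM in scaffold libraries, and its 95% interval of the fold ran from 0.936 to 1.09. Sdhd, a membrane anchor, was at 0.01 and Sdhc, the other anchor, at -0.11 on the log2 scale, with edgeR adjusted p-values of 0.951 and 0.451. The groups overlapped for Sdha, Sdhc and Sdhd.

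In complex III the 9 nuclear genes had a median log2 fold change of -0.01. The most abundant were Uqcrh, the hinge protein, Uqcrb, and Uqcrc2, a core protein, and their log2 fold changes were -0.09, 0.01 and 0.01. The lowest value was that of Uqcr11, a small subunit, at -0.17 ± 0.12 (SE; adjusted p = 0.508, edgeR), and the highest that of Uqcrc1, the other core protein, at 0.09 ± 0.05 (SE; adjusted p = 0.399, edgeR). Cyc1, the cytochrome c1 that hands electrons to cytochrome c, is named here after its values were seen. It measured 17.8, 18.7 and 17.8 FPKM in control and 16.8, 15.6 and 16.1 FPKM in scaffold libraries. Every scaffold library stood below every control, and the log2 fold change was -0.12 ± 0.06 (SE; adjusted p = 0.332, edgeR).

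In complex IV, 16 of 20 nuclear genes were tested and their median log2 fold change was 0.05. The 16 include Cox6a2, Cox7a1 and Ndufa4l2, each below 1 FPKM on average. Their values of 1.14, 0.99 and 0.48 raise that median. The most abundant of the 20 genes was Cox8a, the widely expressed form of a small subunit. It measured 144, 181 and 178 FPKM in control and 168, 186 and 186 FPKM in scaffold libraries. The groups overlapped, with a log2 fold change of 0.14 ± 0.09 (SE; adjusted p = 0.437, edgeR). Cox6a1 was at 0.15 and Cox4i1 at 0.08, and neither passed. The lowest value was that of Cox6c, at -0.22 ± 0.13 (SE; adjusted p = 0.425, edgeR), with 16.8, 19.4 and 20.4 FPKM in control and 19.9, 13.9 and 13.6 FPKM in scaffold libraries. Scaffold replicates 2 and 3 were again below every control.

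Several complex IV subunits exist in a general form and in a form known from muscle, lung or testis, and in each such pair the general form dominated. Cox4i1 averaged 109.6 FPKM in control and 113.1 in scaffold libraries, against at most 0.178 FPKM in any library for Cox4i2, the form known from lung. Ndufa4, now placed in complex IV, measured 56.1 to 68.0 FPKM against 0.115 to 0.224 FPKM for Ndufa4l2. Cox6b1 measured 52.7 to 68.3 FPKM, while Cox6b2, the testis form, was listed at 0 in 5 libraries and at 0.033 FPKM in control replicate 1.

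The muscle forms were near the limit of detection. Cox6a2 measured 0.763, 0.137 and 0.234 FPKM in control and 0.768, 0.975 and 0.733 FPKM in scaffold libraries. The groups overlapped in control replicate 1, and the log2 fold change of 1.14 ± 0.56 did not pass (SE; adjusted p = 0.316, edgeR). Cox7a1 was at 0.99 ± 0.65 (SE; adjusted p = 0.475, edgeR), and Cox8b, too low to test, was listed at 0 in all controls and in scaffold replicate 1, and at 0.353 and 0.683 FPKM in the others. The 8 of 10 muscle markers found in the table summed to 0.998, 0.392 and 1.00 FPKM in control and 2.93, 2.50 and 2.07 FPKM in scaffold libraries, with 3 of the 8 (Ckm, Mb and Actc1) higher in every scaffold library than in every control and Acta1, skeletal actin, lower in every one. Of all genes tested, 9.23% were higher and 16.2% lower in this way. None of the 8 muscle markers found was at 0 in all libraries, and the part of these markers in the values of the muscle forms was not tested. Of the widely expressed partners, Cox7a2 was at -0.21 and Cox7a2l, a factor of supercomplex assembly, at 0.10 on the log2 scale, neither passing.

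In complex V the catalytic head genes were level between groups. Atp5b measured 169, 181 and 183 FPKM in control and 179, 182 and 188 FPKM in scaffold libraries, with a 95% interval of the fold from 0.968 to 1.15. Atp5a1, the alpha subunit, was at 0.01 and Atp5c1, the gamma subunit of the central stalk, at 0.10 on the log2 scale. The exception was the smallest stalk subunit, Atp5e (chr2:174461072-174464105), with 31.9, 34.4 and 37.6 FPKM in control and 34.8, 21.1 and 20.7 FPKM in scaffold libraries. It had the lowest log2 fold change of all 96 tested subunits, -0.40 ± 0.16 (SE; adjusted p = 0.226, edgeR), with scaffold replicate 1 among the controls and the other two scaffold libraries well below them.

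The largest positive difference among the nuclear genes of complex V was that of Atp5pb, the b subunit of the peripheral stalk, at 0.18 ± 0.07 (SE; adjusted p = 0.206, edgeR). It measured 26.5, 29.2 and 31.9 FPKM in control and 31.9, 31.5 and 33.1 FPKM in scaffold libraries, and its gene overlaps Wdr77. The 3 genes that encode the same ring-forming c subunit differed in level. In control libraries Atp5g2 measured 34.3, 43.0 and 46.5 FPKM and Atp5g3 36.8, 39.9 and 43.2 FPKM, against 5.16, 9.02 and 5.89 FPKM for Atp5g1. Part of that gap lies in the worked-back lengths, 1676, 2182 and 4916 bases in that order. In CPM the controls stood at 62.8, 79.8 and 86.3 for Atp5g2 and at 87.9, 96.4 and 104 for Atp5g3. Atp5g1 stood at 27.7, 49.1 and 32.1 CPM. The log2 fold changes of Atp5g2, Atp5g3 and Atp5g1 were -0.04, -0.05 and -0.18, none passing. These directions depended on single libraries, since Atp5g1 was at 0.10 without control replicate 2, and Atp5g2 and Atp5g3 turned above 0 without control replicate 3 or scaffold replicate 2, Atp5g3 also without scaffold replicate 3. Of the 87 nuclear subunit genes, 34 overlap another gene of the table and 20 overlap one at 1 FPKM or more, so part of their reads may belong to the neighbour.

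Across all 83 nuclear genes tested, 5 did not overlap between groups with scaffold libraries higher in CPM (Ndufb10, Ndufb4c, Uqcrc1, Ndufa4l2 and Atp5pb, against 12.5% of all genes) and 1 with scaffold libraries lower (Cyc1, against 11.4%). Both shares are below the background. In FPKM the balance was the other way, with 1 higher (Ndufb4c, against 9.23% of all genes) and 6 lower (Ndufv1, Ndufa3, Ndufs1, Uqcrfs1, Cyc1 and Atp5a1, against 16.2%), again below the background.

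Subunits of 1 genome varied in parallel from library to library. In the nuclear set scaffold replicate 1 stood apart from the other scaffold libraries. In the mitochondrial set the medians rose stepwise from scaffold replicate 1 to 3, with no single library apart. Scaffold replicate 1 was the lowest scaffold library in 12 of 13 mitochondrial genes. It was the highest in 50 of the 77 nuclear subunits with a mean of at least 5 FPKM. Control replicate 1 was the lowest control in 13 of 13 mitochondrial and in 74 of 77 nuclear genes. The median deviation of the 77 nuclear subunits from each gene's mean was -0.12, 0.06 and 0.08 on the log2 scale in control and 0.08, -0.11 and -0.03 in scaffold libraries. The 13 mitochondrial genes had -0.20, -0.04 and -0.05 in control and -0.05, 0.10 and 0.26 in scaffold libraries. The nuclear sum was thus lowest in control replicate 1 and scaffold replicate 2, and the mitochondrial sum highest in scaffold replicate 3.

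The spread was also set beside the length worked back from counts and FPKM, which is not the transcript length. A gene's class below may therefore not be that of its transcript. The 69 nuclear subunits over 700 bases had medians of -0.12, 0.06 and 0.08 in control and 0.08, -0.10 and -0.01 in scaffold libraries, close to those of all 77. The 330 other nuclear genes of at most 700 bases had medians of -0.13, 0.03 and 0.04 in control and 0.10, -0.01 and 0.00 in scaffold libraries, and the 8 nuclear subunits of that length -0.14, 0.13 and 0.19 in control and 0.18, -0.18 and -0.18 in scaffold libraries. Other nuclear genes over 700 bases (6476) stayed within 0.02 of 0. Across the 77 nuclear subunits, Spearman's rho between this worked-back length and log2 fold change was 0.08, a description over genes that share libraries. The part of transcript length in the subunits' values was not tested.

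**Figure D5:**
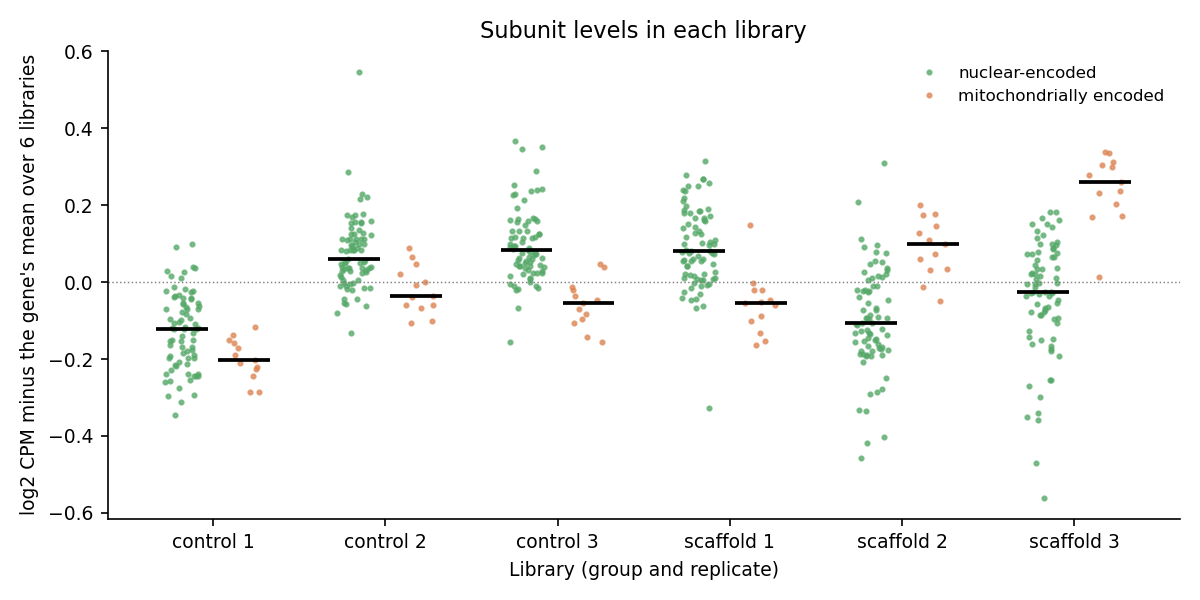
Deviation of each subunit's log2 CPM from its mean over the 6 libraries (y), by library (x), for the 13 mitochondrial genes and the 77 nuclear subunits of at least 5 FPKM; black bars are medians. Control replicate 1 is low in both sets, and scaffold replicate 1 is the scaffold library with the highest nuclear and the lowest mitochondrial median.

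Leaving out scaffold replicate 1 changed the counts of calls. By edgeR, 6 mitochondrial genes then rose, namely mt-Nd1, mt-Nd2, mt-Co1, mt-Co2, mt-Atp8 and mt-Atp6 (3.40% of all genes were called higher), with adjusted p-values from 0.00722 for mt-Atp8 to 0.0302 for mt-Co2. DESeq2 on all 6 libraries called the same 6 genes, with adjusted p-values from 0.000251 for mt-Nd1 to 0.0322 for mt-Nd2. Without that library 5 nuclear subunits fell (1.99% of all genes were called lower). They were Atp5e (log2 fold change -0.69, edgeR adjusted p = 0.00209), Ndufc1 (-0.57, 0.0170), Cox6c (-0.41, 0.0209), Cox7a2 (-0.38, 0.0276) and Ndufb3 (-0.45, 0.0401). Nothing in the labels sets scaffold replicate 1 apart, and the value with all 6 libraries remains the one the design gives.

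Promoters of nuclear subunits are known for binding sites of NRF1, of the ETS factor GABP and of YY1. Promoter sequences (RefSeq, GRCm38.p6, 250 bases before to 50 after the start) were found for 68 of the 87 nuclear genes. The core of the NRF1 motif, CGCATGCG, read like the others on both strands, was present in 9 of 68 (13.2%), against 2.07% of 27025 genes with such a promoter. The ETS motif CCGGAAG was present in 17 (25.0%, against 9.93%) and the YY1 motif AAGATGGCG in 7 (10.3%, against 1.64%), and any of them in 27 (39.7%, against 12.8%). The 27025 genes were not matched to the subunits in expression or in base content of the promoter. The ETS and YY1 motifs can share the bases AAG, and the match is a description, not a site in use. Stretches around the NRF1 motif (capitals) are shown for Cox6a1 (chr5:115349087-115349144, minus strand), Ndufa11 (chr17:56717678-56717735, plus strand) and Atp5g2 (chr15:102671056-102671113, minus strand), and around the ETS motif for Atp5e (chr2:174464172-174464228, minus strand), whose log2 fold change was the lowest.
Cox6a1: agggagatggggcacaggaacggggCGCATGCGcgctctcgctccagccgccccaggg
Ndufa11: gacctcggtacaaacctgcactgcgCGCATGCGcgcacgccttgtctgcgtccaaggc
Atp5g2: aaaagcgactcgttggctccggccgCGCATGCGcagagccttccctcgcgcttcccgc
Atp5e: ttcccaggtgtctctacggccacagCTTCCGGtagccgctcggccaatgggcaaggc

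The log2 fold changes of the 3 genes with the NRF1 motif shown were 0.15 for Cox6a1, 0.02 for Ndufa11 and -0.04 for Atp5g2, and none passed the test.

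Genes that build or feed the chain were examined in lists beside the subunits, against the same 2.85% of genes called higher and 1.46% lower. In the list of cytochrome c and coenzyme Q synthesis, 1 of 17 genes tested rose and none fell. The gene was Cycs, cytochrome c itself, the carrier between complexes III and IV (chr6:50562563-50566538), with 17.4, 18.1 and 19.4 FPKM in control and 21.1, 21.3 and 22.1 FPKM in scaffold libraries. Every scaffold library stood above every control. Its log2 fold change was 0.27 ± 0.06 (SE; adjusted p = 0.0240, edgeR), and the adjusted p ranged from 0.00111 to 0.138 over 18 alternatives. The call was lost without control replicate 1 or 2 or scaffold replicate 2 or 3, with no filter on low counts, and in 3 of 4 limma settings.

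By edgeR no gene passed in the lists of assembly factors, which numbered 17 tested for complex I, 4 for II, 6 for III, 20 for IV and 3 for V. The smallest adjusted p among them was that of Tmem70, a factor of ATP synthase assembly, with 18.9, 18.1 and 20.4 FPKM in control and 16.5, 14.2 and 15.1 FPKM in scaffold libraries. Every scaffold library stood below every control, at a log2 fold change of -0.29 ± 0.08 (SE; adjusted p = 0.0623, edgeR). Surf1, an assembly factor of complex IV, was at -0.26 ± 0.08 (SE; adjusted p = 0.116, edgeR).

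Mitochondrial DNA transcription and replication (15 tested), mitochondrial RNA processing (19), nuclear regulators (9), the citric acid cycle (13) and carriers of the inner and outer membrane (11) also gave no call by edgeR. At an unadjusted p under 0.05 these 5 lists held 6 genes and the assembly lists another 6, against 18.1% of all genes tested. Cs, citrate synthase, which opens the cycle, was at 0.15 ± 0.05 (SE; adjusted p = 0.130, edgeR). Tfam, the factor that packages mitochondrial DNA and starts its transcription, measured 7.47, 7.96 and 7.48 FPKM in control and 7.53, 6.78 and 6.33 FPKM in scaffold libraries. It is given for its role and its groups overlapped, with a log2 fold change of -0.11 ± 0.07 (SE; adjusted p = 0.477, edgeR). Polrmt, the mitochondrial RNA polymerase, was at 0.07 (edgeR adjusted p = 0.628). The 78 mitochondrial ribosomal protein genes had a median log2 fold change of 0.05 and 53 above 0, and none passed. The smallest adjusted p among them was that of Mrps34 at 0.0750, and 5 genes had an unadjusted p under 0.05. DESeq2 called 4 genes over all these lists, namely Cycs, Cs and Mrps34 higher and Tmem70 lower, against its 6.13% of all genes higher and 3.48% lower. Without scaffold replicate 1, edgeR called Cycs higher and Tmem70, Sdhaf4, Cox14, Cox17 and Mrps14 lower, against 3.40% and 1.99% of all genes.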

How the data were processed

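The study's single gene table holds FPKM values and estimated counts for 6 libraries, as deposited by the authors. Per the submitters' processing notes the tools included HISAT2, StringTie, fastp and bcl2fastq 2.20, and also edgeR and DESeq2, with no role stated. The sources used here give no build. Coordinates were identical to GENCODE M21 (GRCm38) for 84 of 100 members. The deposited estimated counts are whole numbers that pile up at multiples of 4 at the low end. Of the counts from 1 to 12, 31.8% to 33.6% per library were 4, 8 or 12. From this, 1 read pair was taken as worth about 4 counts, which was not measured. Depth in pairs would then be lower than the totals show.

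edgeR 4.0.16 (R 4.3.3; filterByExpr with a minimum count of 10, TMM, quasi-likelihood test, group as the sole term) was fitted on all genes. Alternatives were DESeq2 1.42.0, other scalings, counts divided by 4, no filter, limma 3.58.1 on log2(FPKM + 1) or log2(FPKM + 0.1), a replicate block, and each library left out. The scripts were tested on simulated data. Named members were all mitochondrial genes, in each complex the 3 nuclear genes of highest FPKM and the highest and lowest fold change, isoform pairs, and in the other lists the genes past the threshold or else the smallest p. Genes outside that rule (Ndufb4c, Ndufb3, Cyc1, Tfam, Polrmt, those in counts) were added after their values were seen. Members and lists were chosen with earlier results of these data known. A result that the naming rule would give is not reported here.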

Additional observations from a re-analysis of the deposited data

How the results depend on the processing

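With all 6 libraries and edgeR's quasi-likelihood test, 0 subunits were called in either direction. DESeq2 called 6 higher, all mitochondrial, and limma on log2(FPKM + 1) with a mean of at least 5 FPKM called 1 higher, the nuclear Ndufb4c. Over the libraries left out in turn, the number called ranged from 0 to 6 higher (all mitochondrial) and from 0 to 5 lower (all nuclear), and the calls came from leaving out scaffold replicate 1. The remaining alternatives (other scalings, no filter, counts divided by 4, the other limma settings) called 0. The cause of these differences was not tested.

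With the replicate number as a block, edgeR called 2 higher, mt-Nd1 (adjusted p = 0.0250) and mt-Co2 (0.0387), with 2.65% of genes called higher and 1.1% lower. Over all tested genes, same-numbered libraries did not deviate together (correlations of -0.03, -0.02 and 0.01). A correlation over all genes cannot exclude pairing that touches few of them, and the labels do not state any pairing.

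The median log2 fold change ranged over libraries left out from 0.11 to 0.29 for mitochondrial and from -0.07 to 0.02 for nuclear subunits, the latter turning above 0 without control replicate 2, control replicate 3 or scaffold replicate 2. The difference in the mitochondrial share of counts, 0.884 points, ranged from 0.478 (without scaffold replicate 3) to 1.28 (without scaffold replicate 1) and was 1.78 points as a share of summed FPKM, where lengths enter. The log2 ratio of summed FPKM, mitochondrial over nuclear, differed by 0.20 and ranged from 0.12 without scaffold replicate 3 to 0.33 without scaffold replicate 1. With chromosome 1 copies added, an alternative chosen after seeing the data, the share differed by 1.10 points.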

Other observations

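Some mitochondrial tRNA rows stood apart in 1 library. Control replicate 2 had 400 estimated counts of mt-Th against 38 to 54 in the other libraries, 312 of mt-Ts2 against 28 to 44 and 334 of mt-Tl2 against 39 to 57. These 3 of 22 tRNA rows, chosen after their values were seen, lie side by side between mt-Nd4 and mt-Nd5, and control replicate 2 exceeded every other library by more than 3 times in them alone. Just under that cut, mt-Tg, which lies between mt-Co3 and mt-Nd3, had 305 counts in control replicate 2. The other libraries had 53 to 108, and the excess over the highest of them was 2.82 times. mt-Nd4 at 4115 FPKM and mt-Nd5 at 3376 FPKM in control replicate 2 lay within the range of the others.

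Among the 10 rows left out as pseudogenes by symbol, Ndufa12-ps averaged 34.5 FPKM, above the 8.45 FPKM of its parent Ndufa12. The worked-back length of Ndufa12 was 1573 bases, and the part of length in that gap was not tested. How reads that match both Ndufa12 and Ndufa12-ps were counted was not stated. Ndufb1-ps averaged 9.19 FPKM, and no gene named Ndufb1 is among the members.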
